A study of Sus scrofa with 12 samples.

Results

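Kinesins are motor proteins that bind microtubules and use ATP. Some build and pull the spindle of dividing cells, some carry parts along cilia and flagella or set their length, and others haul vesicles, organelles and signalling proteins through the cell. The testis makes heavy use of microtubules, in spermatogonial and meiotic spindles, in the manchette that shapes the spermatid head and in the sperm tail, whereas the epididymis is a duct of non-dividing epithelium in a coat of smooth muscle, in which sperm mature. The kinesin genes were taken as every row of the count files whose gene name is KIF or KIFC followed by the member's number and letter, which gave 38 of 30640 gene rows.

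The samples came from untreated adult pigs, boars of an inbred line of Banna mini-pigs (BMI), with an age of 12 months in the labels. In the file headers the ages are 12, 12, 11, 17 and 11 months, in the order of replicates 1 to 5. Testis and epididymis were each sequenced as 5 short-read libraries, and an animal number that recurs in the headers of both tissues ties each testis library to the epididymis library of the same boar, 5 boars in all. The labels do not say which region of the epididymis was taken. Values are raw read counts per gene, given here as the count per 1000000 reads of the library (CPM), and, where different genes are compared, as CPM per 1000 bases of the gene length in the files (RPKM).

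Libraries held 18715154 to 30211957 reads in testis and 17980578 to 21937263 in epididymis. Marker genes were in keeping with the labelled tissues: 19 haploid germ cell markers summed to 19053 to 24197 CPM in testis, against 154 to 743 CPM in epididymis, and 9 epididymal epithelium markers to 36.7 to 48.9 CPM in testis, against 2445 to 16309 CPM in epididymis. The lowest epithelial sum and the highest haploid sum of the epididymis, 2445 and 743 CPM, both belong to replicate 3. The other epididymis libraries had haploid sums of 154 to 281 CPM. Small structural RNAs without poly(A) tails summed to 15043 to 16185 CPM in testis replicates 1, 2, 3 and 5, whereas testis replicate 4 had 70.8 CPM and the 5 epididymis libraries had 71.7 to 132 CPM. Histone genes summed to 2030.0 to 2915 CPM in the same 4 testis libraries, whereas testis replicate 4 had 76.1 CPM and the epididymis libraries 59.8 to 295 CPM. In these RNAs testis replicate 4 thus resembled the epididymis libraries, and the difference between the other 4 testis libraries and the epididymis runs with the tissue. Leaving these rows and the mitochondrial genes out gave the same counts of called kinesins, 24 and 6. That step removes only the rows themselves. It cannot show whether what set these libraries apart also affected the kinesin reads, which was not tested. Testis replicate 4 also had 786 CPM of 10 meiotic markers, against 1236 to 1393 CPM in the other testis libraries. Its haploid sum was 24197 CPM, against 19053 to 21259 CPM in the other testis libraries. Fewer cells of a type and less RNA per cell cannot be told apart in such bulk libraries.

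Kinesin transcripts were more abundant in testis. The 38 genes summed to 3683 to 4063 CPM in testis, with a mean of 3916 ± 146, and to 719.5 to 941 CPM in epididymis, with a mean of 845 ± 90.5 (SD, n = 5 each). Without KIF17 the sums were 2441 ± 189.5 and 837 ± 86.6 CPM. No epididymis library reached the lowest testis library in either sum.

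**Figure D1:**
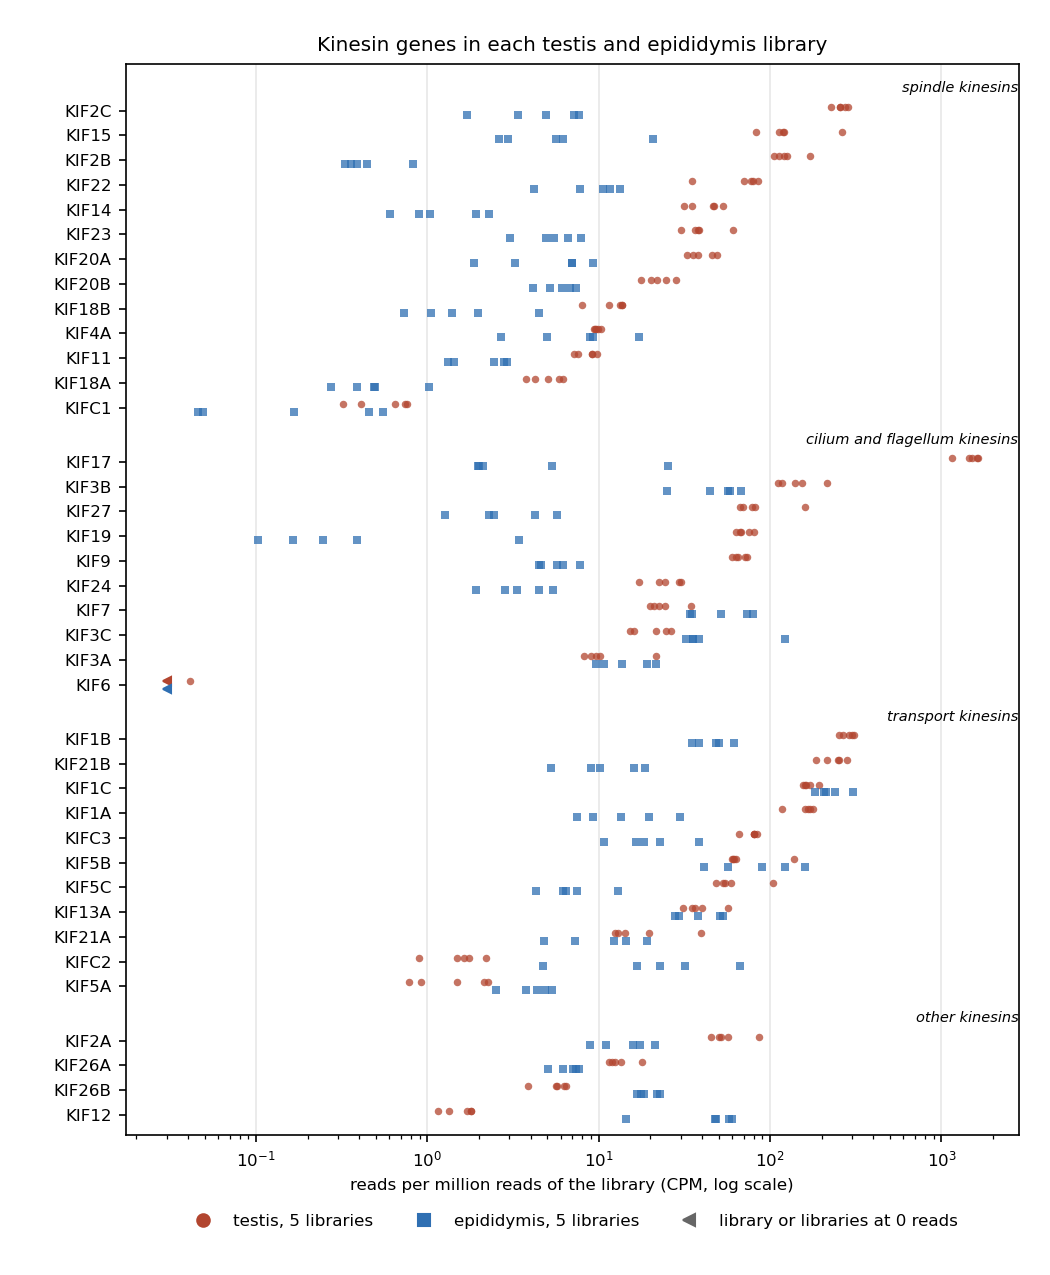
CPM (log axis) of each kinesin gene in the 5 testis libraries (circles) and the 5 epididymis libraries (squares), grouped by role and ordered by the testis mean; triangles mark libraries at 0 reads. KIF17 stands farthest right, at 1156 to 1633 CPM in testis, while KIF12, KIFC2 and KIF26B have all 5 testis libraries left of the epididymis libraries.

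Of the 38 genes, 36 passed the filter on low counts and were tested. With edgeR's quasi-likelihood test across 17225 genes, adjusted by the Benjamini-Hochberg method, 24 kinesins were higher in testis and 6 higher in epididymis, against 36.6% and 37.8% of all tested genes, or 74.4% in either direction. That is 66.7% and 16.7% of the tested kinesins. A change beyond 2-fold passed for 23 kinesins higher in testis and 3 higher in epididymis, against 27.3% and 23.4% of all genes. The 5 testis libraries lay above the 5 epididymis libraries in 24 kinesins and below them in 5, against 32.1% and 29.3% of all genes. The median log2 fold change, testis over epididymis, was 2.31 for the tested kinesins and -0.07 for all tested genes. With testis replicate 4 alone (1 testis library against the 5 of the epididymis), 21 kinesins were higher in testis and 2 were higher in epididymis, against 23.4% and 11.4% of all 18896 genes of that fit.

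**Figure D2:**
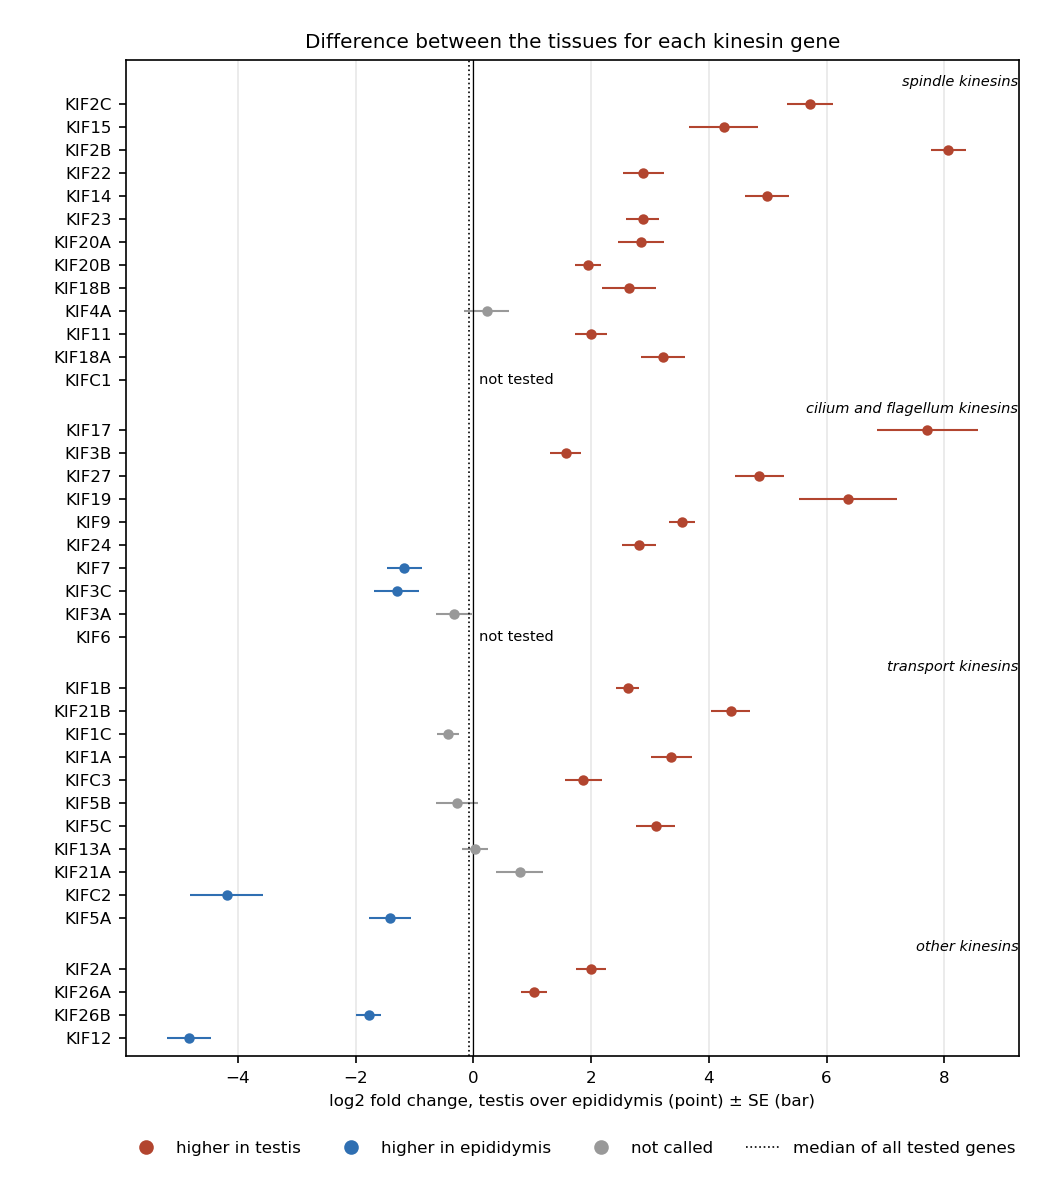
Log2 fold change of each kinesin gene, testis over epididymis, with its standard error; red points were higher in testis, blue points higher in epididymis, grey points were not called, and the dotted line is the median of all tested genes. Spindle kinesins lie right of 0, transport kinesins on both sides, and the range runs from -4.83 for KIF12 to 8.07 for KIF2B.

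Among the kinesins of the spindle and of cytokinesis, 11 of 12 tested genes were higher in testis and none higher in epididymis, with a median log2 fold change of 2.89. That is 91.7% and 0%, against 36.6% and 37.8% of all tested genes, whose median was -0.07. All 11 genes higher in testis passed the 2-fold test and none of them had overlapping libraries, whereas 32.1% of all genes had every testis library above. The role groups were chosen with earlier results of these data known, so the counts by role only describe the groups. The spindle group covers motors that slide spindle poles apart, move chromosomes, shorten microtubules at kinetochores and assemble the central spindle. Of the markers of dividing and meiotic cells, 9 proliferation genes summed to 811 to 991 CPM in testis and 164 to 255 CPM in epididymis, and the 10 meiotic genes to 786 to 1393 CPM and 33.6 to 68.1 CPM. Their part in the kinesin values was not tested.

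KIF2B, a microtubule depolymerase of mitotic kinetochores, was, with KIF17, one of the 2 kinesins with the largest fold changes over all libraries (chromosome 12, 30161677 to 30163731 in Sscrofa11.1). It ranked above KIF17 there, with log2 8.07 against 7.71, but below it without epididymis replicate 3, with 8.35 against 9.04, and with the boar as a block, with 8.11 against 8.54. It stood at 125, 105, 121, 171 and 113 CPM in testis replicates 1 to 5, against 0.356, 0.329, 0.821, 0.389 and 0.441 CPM in epididymis replicates 1 to 5. The epididymis libraries held 47 reads of it together, so it was near the limit of detection there, and the highest of them was replicate 3. Its log2 fold change was 8.07 ± 0.30 (SE), a 269-fold difference (edgeR adjusted p = 9.6e-09).

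KIF2C, the related depolymerase MCAK of centromeres (chromosome 6, 166556765 to 166577904), was the most abundant spindle kinesin per length in testis. It had 283, 228, 256, 257 and 274 CPM in testis and 7.69, 4.93, 7.20, 3.39 and 1.71 CPM in epididymis. Its testis libraries lay within a narrow band, including replicate 4. On the log2 scale the difference was 5.72 ± 0.39 (edgeR adjusted p = 1.9e-07), or 52.7-fold.

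KIF14, a cytokinesis motor that binds citron kinase at the midbody (chromosome 10, 23123379 to 23177919), had 47.2, 31.4, 34.8, 53.2 and 46.7 CPM in testis and 1.93, 0.602, 2.28, 0.890 and 1.03 CPM in epididymis. Its log2 fold change was 4.99 ± 0.37 (edgeR adjusted p = 3.3e-07). The gene of its partner, the citron kinase gene CIT, showed a log2 fold change of similar size, 5.05 ± 0.39, with 116 ± 25.5 CPM in testis and 3.53 ± 1.71 CPM in epididymis (SD, n = 5 each, edgeR adjusted p = 4.0e-07).

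KIF22, a motor on chromosome arms (chromosome 3, 18023104 to 18041732), was the spindle kinesin with the highest level per length in epididymis, with 25.7 ± 7.41 RPKM in testis and 3.52 ± 1.34 RPKM in epididymis (SD, n = 5 each). By library it had 79.3, 70.3, 77.5, 34.8 and 84.9 CPM in testis and 13.3, 10.6, 11.6, 7.79 and 4.16 CPM in epididymis. Testis replicate 4 was the lowest testis library, yet still above each epididymis library. Its log2 fold change was 2.89 ± 0.35 (edgeR adjusted p = 1.4e-05), and 1.98 with testis replicate 4 alone (edgeR adjusted p = 0.0288).

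KIF15, which helps to keep spindle poles apart (chromosome 13, 27966586 to 28041121), behaved the other way in that library, with 263 CPM in testis replicate 4 against 83.1 to 120.0 CPM in the other testis libraries. The epididymis libraries ran from 2.60 to 6.21 CPM apart from replicate 4, with 20.6 CPM. Both high libraries are of 1 boar. The proliferation markers summed to 225 CPM in epididymis replicate 4, within the range of its tissue, and to 811 CPM in testis replicate 4, the lowest of its tissue. Testis replicate 4 was also high in other kinesins, as given below. The part of the boar, of the library or of dividing cells in the KIF15 values was not tested. The log2 fold change was 4.25 ± 0.58 (edgeR adjusted p = 3.5e-05), and 4.97 without epididymis replicate 4.

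The remaining 6 called spindle motors had log2 fold changes of 1.94 to 3.22. KIF18A, which dampens chromosome movement at kinetochores, had 5.01 ± 1.01 CPM in testis and 0.533 ± 0.286 CPM in epididymis (SD, n = 5 each, log2 3.22 ± 0.38), and KIF18B, of astral microtubules, 12.0 ± 2.39 and 1.92 ± 1.50 CPM (log2 2.65 ± 0.46, or 3.26 without epididymis replicate 1). The central spindle motors stood close together. KIF20A, which brings Aurora B to the central spindle, had 40.2 ± 6.83 CPM in testis and 5.66 ± 3.02 CPM in epididymis (log2 2.84 ± 0.39), and KIF23, the motor of centralspindlin, 40.7 ± 11.5 and 5.57 ± 1.81 CPM (log2 2.88 ± 0.28). KIF20B, which acts late in cytokinesis, had 22.6 ± 4.09 CPM in testis and 5.94 ± 1.29 CPM in epididymis (log2 1.94 ± 0.22). KIF11, the motor that drives the spindle poles apart in mitosis, was a low transcript, with 8.55 ± 1.12 CPM in testis and 2.18 ± 0.755 CPM in epididymis (log2 2.0 ± 0.27). The edgeR adjusted p-values of these 6 genes were 2.3e-06 to 0.000256, and KIF18B lost its call when testis replicate 4 stood alone (log2 2.15, edgeR adjusted p = 0.0996).

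KIF4A, a chromosome-bound motor and the single kinesin row placed on the X chromosome (56319453 to 56447560), was the exception in this group. It had 10.3, 9.57, 9.86, 9.40 and 9.44 CPM in testis and 9.21, 4.98, 8.93, 17.1 and 2.69 CPM in epididymis. The testis libraries were nearly equal, with 4 epididymis libraries below them and replicate 4 above. The log2 fold change of 0.23 ± 0.38 did not pass the test (edgeR adjusted p = 0.593).

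KIFC1, a spindle motor that moves to the minus end and that in rodents also serves the spermatid head, was barely detected. It had 0.410, 0.761, 0.648, 0.321 and 0.739 CPM in testis and 0.458, 0.548, 0.0456, 0.167 and 0.0490 CPM in epididymis, from 69 and 24 reads in all. The tissues overlapped, and the gene did not pass the filter. Without the filter its log2 fold change was 1.21 (edgeR adjusted p = 0.128).

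The kinesins of cilia and flagella differed from each other in direction. Among 9 of them that were tested, 6 were higher in testis, each beyond 2-fold and without overlap, and 2 were higher in epididymis, with a median log2 fold change of 2.82. These are 66.7% and 22.2% of the 9, against 36.6% and 37.8% of all tested genes. Sperm tails are built in the testis, and the same motors serve the single primary cilium of many somatic cells and the motile cilia of the ducts that join testis and epididymis. Of 8 markers of multiciliated cells, FOXJ1, CCNO, DEUP1 and CDC20B were higher in testis and TPPP3 in epididymis. MCIDAS, which starts the multiciliated programme, stood at 0.594 ± 0.250 CPM in testis and 0.932 ± 0.461 CPM in epididymis, and the list summed to 112 to 144 CPM in testis and 19.6 to 38.7 CPM in epididymis. GMNC, which acts above MCIDAS, had 0 reads in 4 epididymis libraries. The part of such cells was not tested, nor was that of the haploid germ cells, whose markers differ between the tissues as given above.

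KIF17, a homodimeric motor of the intraflagellar transport family, was by far the most abundant kinesin of the testis. In mouse spermatids it is known for carrying a transcriptional coactivator out of the nucleus. The libraries held 1611, 1458, 1633, 1156 and 1515 CPM in testis, against 1.99, 1.97, 25.2, 5.34 and 2.11 CPM in epididymis. Testis replicate 4 was the lowest of its tissue and epididymis replicate 3, the library with the most haploid germ cell transcripts, the highest of its own. On the log2 scale the difference was 7.71 ± 0.86, a 209.9-fold difference (edgeR adjusted p = 7.3e-06), and 9.04 or 525-fold without epididymis replicate 3 (edgeR adjusted p = 3.7e-09). With the boar as a block it was 8.54 (edgeR adjusted p = 1.5e-05). The part of the haploid transcripts in that library was not tested. Per length it made up 46.8 ± 4.97% of all kinesin RPKM in testis, with 38.0% in replicate 4 and more in each of the others, and 1.2 ± 1.63% in epididymis, with 4.09% in replicate 3. It had 399.8 ± 51.9 RPKM in testis, against 82.8 ± 6.71 RPKM for the next gene there, KIF2C, and the libraries of the 2 genes did not overlap.

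KIF19, which shortens microtubules at the tips of motile cilia and so limits their length in mice (chromosome 12, 6775695 to 6803066), followed the same library pattern. It had 80.5, 67.3, 75.2, 63.5 and 66.3 CPM in testis and 0.102, 0.164, 3.42, 0.389 and 0.245 CPM in epididymis. Of its 92 reads in the epididymis most came from replicate 3. Its log2 fold change was 6.36 ± 0.83 (edgeR adjusted p = 2.6e-05), and 8.27 without that library (edgeR adjusted p = 1.7e-09), or 7.30 with the boar as a block (edgeR adjusted p = 4.4e-05).

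KIF27, a relative of KIF7 that is needed for motile cilia in mice (chromosome 10, 31026133 to 31117900), had 66.6, 69.4, 81.7, 159 and 78.5 CPM in testis and 1.27, 2.46, 5.70, 4.23 and 2.30 CPM in epididymis. Testis replicate 4 was the highest testis library here. Its log2 fold change was 4.86 ± 0.42 (edgeR adjusted p = 9.7e-07). KIF9, a motor of the central pair apparatus that sperm need to swim well in mice, had the smallest standard error of the group, with 66.8 ± 5.66 CPM in testis and 5.74 ± 1.33 CPM in epididymis (SD, n = 5 each, log2 3.55 ± 0.22, edgeR adjusted p = 8.7e-08). KIF24, a depolymerase that holds back cilium growth at the mother centriole, had 24.7 ± 5.34 CPM in testis and 3.59 ± 1.37 CPM in epididymis (log2 2.82 ± 0.29, edgeR adjusted p = 3.9e-06).

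The subunits of heterotrimeric kinesin II, the motor that carries intraflagellar transport trains to the ciliary tip, did not move together. KIF3B, the motor subunit that pairs with KIF3A, was higher in testis, with 148 ± 42.0 CPM in testis and 50.6 ± 16.5 CPM in epididymis (SD, n = 5 each, log2 1.57 ± 0.26, edgeR adjusted p = 0.000170). KIF3A (chromosome 2, 134932339 to 135069408) had 10.1, 9.04, 8.24, 21.6 and 9.69 CPM in testis and 9.67, 10.7, 13.7, 21.5 and 19.0 CPM in epididymis. Outside replicate 4, the testis libraries stood near the lowest epididymis library. The difference did not pass the test (log2 -0.33 ± 0.31, edgeR adjusted p = 0.355), was called higher in epididymis without testis replicate 4 (log2 -0.65, edgeR adjusted p = 0.0365), and turned to 0.64 with that library alone for the testis (edgeR adjusted p = 0.347). KIFAP3, the non-motor subunit, was singled out here after its values were seen, with 37.3 ± 13.1 CPM in testis and 25.8 ± 2.90 CPM in epididymis (log2 0.54 ± 0.21, edgeR adjusted p = 0.0365). Its libraries overlapped. Testis replicate 4 had 60.1 CPM and the other testis libraries 28.9 to 36.7 CPM, against up to 30.2 CPM in epididymis.

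KIF3C, which can take the place of KIF3B beside KIF3A and is best known from neurons (chromosome 3, 112963424 to 113014632), was higher in epididymis. It had 21.7, 26.3, 24.6, 15.3 and 16.1 CPM in testis and 38.6, 32.5, 122, 35.5 and 35.3 CPM in epididymis. Epididymis replicate 3 held more than any other library, but the other 4 also lay above the testis libraries. That gave a log2 fold change of -1.30 ± 0.38 (edgeR adjusted p = 0.00841), or -0.77 without epididymis replicate 3, and it did not pass the 2-fold test. With testis replicate 4 alone the call was lost (log2 -1.66, edgeR adjusted p = 0.177).

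KIF7, which organises the tip of the primary cilium and relays Hedgehog signals (chromosome 7, 55200591 to 55220237), was also higher in epididymis and had the highest level per length of the ciliary group there, with 3.96 ± 0.963 RPKM in testis and 8.88 ± 3.44 RPKM in epididymis (SD, n = 5 each). It had 20.0, 24.2, 22.6, 34.7 and 20.9 CPM in testis and 51.9, 79.9, 34.1, 34.9 and 73.5 CPM in epididymis. The tissues overlapped by a little, at testis replicate 4 and epididymis replicate 3. The log2 fold change was -1.17 ± 0.30 (edgeR adjusted p = 0.00359), and -0.57 with testis replicate 4 alone, which was not called (edgeR adjusted p = 0.488). KIF6, a motor of motile cilia, had 1 read in testis and 0 in epididymis over the 10 libraries, where 0 reads in a library still allow up to 3, that is 0.0993 to 0.167 CPM, so no comparison was made.

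Transport kinesins went both ways and held 4 of the 6 kinesins that were not called. Of 11 tested transport genes, 5 were higher in testis, each beyond 2-fold and without overlap, 2 were higher in epididymis and 4 were not called, with a median log2 fold change of 0.79. These are 45.5% and 18.2% of the 11, against 36.6% and 37.8% of all tested genes. These motors carry mitochondria, synaptic or secretory vesicles, endosomes and Golgi membranes. Several are best known from neurons, and a list of 9 nerve and neuroendocrine markers summed to 57.0 to 89.0 CPM in testis, of which TUBB3 made up 47.6 ± 12.0 CPM, and to 12.6 to 46.2 CPM in epididymis. Of the 6 that could be tested, TUBB3, ELAVL4 and GAP43 were higher in testis, NEFL and SYP were higher in epididymis, and PRPH was not called. SNAP25 had 0 reads in epididymis. The part of nerve was not tested.

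KIF21B, a motor that restrains microtubule growth and is known from neurons and lymphocytes (chromosome 10, 23444997 to 23491081), had 248, 252, 282, 185 and 214 CPM in testis, against 8.96, 10.1, 16.1, 18.7 and 5.29 CPM in epididymis. The lowest testis library, replicate 4, was far above the highest epididymis library. Its log2 fold change was 4.37 ± 0.33, or 20.6-fold (edgeR adjusted p = 3.3e-07). Its paralog KIF21A (chromosome 5, 70888999 to 71029832) had 12.9, 14.2, 12.5, 39.3 and 19.6 CPM in testis and 7.23, 4.82, 14.5, 19.1 and 12.3 CPM in epididymis. The tissues overlapped and the difference was not called (log2 0.79 ± 0.40, edgeR adjusted p = 0.0915), although it was with the boar as a block (log2 0.80, edgeR adjusted p = 0.0312), without epididymis replicates 3 and 4 (log2 1.21, edgeR adjusted p = 0.0264) and with DESeq2 (log2 0.94, adjusted p = 0.0421).

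KIF1A, the carrier of synaptic vesicle precursors (chromosome 15, 139610624 to 139694841), had 166, 159.9, 178, 117 and 172 CPM in testis and 9.21, 13.4, 29.8, 19.7 and 7.49 CPM in epididymis. The groups were well apart, with a log2 fold change of 3.36 ± 0.35 (edgeR adjusted p = 4.3e-06). KIF1B, which carries mitochondria and vesicles, was higher as well, with 283 ± 24.1 CPM in testis and 46.7 ± 10.5 CPM in epididymis (SD, n = 5 each, log2 2.62 ± 0.19, edgeR adjusted p = 2.6e-07). KIF1C, a motor of Golgi and integrin vesicles (chromosome 12, 51899762 to 51924465), was instead among the most abundant kinesins in both tissues. It had 159.6, 192, 172, 156 and 162 CPM in testis and 211, 238, 207, 183 and 303 CPM in epididymis. The ranges touched at testis replicate 2 and epididymis replicate 4. The difference narrowly failed the test (log2 -0.43 ± 0.19, edgeR adjusted p = 0.0562) and passed it without epididymis replicate 3 or 4 (log2 -0.49 and -0.54, edgeR adjusted p = 0.0370 and 0.0207) and without composition factors (log2 -0.44, edgeR adjusted p = 0.0296).

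Conventional kinesin, the first kinesin to be purified, has heavy chains encoded by KIF5A, KIF5B and KIF5C. The ubiquitous KIF5B (chromosome 10, 42637105 to 42693551) had 60.8, 60.2, 61.3, 137 and 63.0 CPM in testis and 57.0, 41.0, 89.9, 122 and 159 CPM in epididymis. The 4 testis libraries other than replicate 4 were nearly equal, and the tissues overlapped widely (log2 -0.28 ± 0.36, edgeR adjusted p = 0.503). KIF5C (chromosome 15, 3190341 to 3361470) was higher in testis, with 58.9, 48.4, 53.4, 104 and 54.8 CPM in testis and 4.28, 6.19, 6.47, 7.45 and 13 CPM in epididymis. All testis libraries lay above the epididymis libraries (log2 3.10 ± 0.33, edgeR adjusted p = 5.4e-06). KIF5A, known from axons (chromosome 5, 22813617 to 22851976), was low in both, with 0.922, 1.49, 2.27, 2.14 and 0.780 CPM in testis and 4.33, 3.78, 4.88, 5.34 and 2.50 CPM in epididymis. It was higher in epididymis without overlap (log2 -1.42 ± 0.36, edgeR adjusted p = 0.00361), but not beyond 2-fold, and its call was lost when testis replicate 4 stood alone (log2 -0.85, edgeR adjusted p = 0.308).

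KIF13A, which moves endosomes (chromosome 7, 13498354 to 13716844), had 35.2, 31.0, 36.6, 56.9 and 40.2 CPM in testis and 27.9, 38.1, 52.9, 50.7 and 29.4 CPM in epididymis. The means were 40.0 ± 9.99 and 39.8 ± 11.6 CPM, with a log2 fold change of 0.03 ± 0.22 (edgeR adjusted p = 0.901). In these files, KIF13B and KIF16B, further endosomal motors, stand under Ensembl identifiers and so outside the 38 rows. KIF13B had 20.7 ± 5.17 CPM in testis and 17.3 ± 13.1 CPM in epididymis (edgeR adjusted p = 0.631), and KIF16B 27.6 ± 4.82 and 67.1 ± 21.4 CPM (log2 -1.27 ± 0.23, edgeR adjusted p = 0.000334).

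The minus-end motors of the KIFC type split. KIFC2, known from neuronal dendrites (chromosome 4, 324623 to 332221), had 1.74, 0.894, 1.48, 2.19 and 1.64 CPM in testis and 31.7, 67.1, 4.74, 16.6 and 22.9 CPM in epididymis. Epididymis replicate 3 was the lowest epididymis library, yet above the testis libraries. That gave a log2 fold change of -4.19 ± 0.62, that is 18.3-fold higher in epididymis (edgeR adjusted p = 7.1e-05). It was -3.57 without epididymis replicate 2, and the call was lost when testis replicate 4 stood alone (log2 -3.62, edgeR adjusted p = 0.108). KIFC3, a motor of apical transport and of cell junctions in epithelia, was higher in testis instead, with 77.8 ± 7.02 CPM in testis and 21.4 ± 10.6 CPM in epididymis (SD, n = 5 each, log2 1.87 ± 0.32, edgeR adjusted p = 0.000193). With testis replicate 4 alone its log2 fold change was 1.70 (edgeR adjusted p = 0.0704).

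The remaining 4 kinesins have other roles, and 2 were higher in testis and 2 in epididymis. KIF12, in humans a gene of cholestatic liver disease (chromosome 1, 254711820 to 254720559), was the kinesin most shifted to the epididymis. It had 1.79, 1.69, 1.80, 1.34 and 1.15 CPM in testis and 48.0, 57.7, 47.8, 59.8 and 14.5 CPM in epididymis. Replicate 5 was the low library in the epididymis, and it too was well above the testis. On the log2 scale the difference was -4.83 ± 0.38, or 28.5-fold higher in epididymis (edgeR adjusted p = 5.0e-07). Per length it had 0.665 ± 0.126 RPKM in testis and 19.5 ± 7.78 RPKM in epididymis, next after KIF1C there. The 6 smooth muscle markers summed to 235 to 389.8 CPM in testis and 5545 to 16037 CPM in epididymis, beside the epithelial sums given above, and the part of either cell type in the kinesins higher in epididymis was not tested.

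The paralogs KIF26A and KIF26B, whose motor domains are thought not to hydrolyse ATP and which act in signalling, went in opposite directions. KIF26B, needed for kidney development in mice (chromosome 10, 17708365 to 18220052), had 5.64, 6.26, 6.43, 3.85 and 5.67 CPM in testis and 16.7, 22.0, 18.3, 17.6 and 22.8 CPM in epididymis (log2 -1.78 ± 0.22, edgeR adjusted p = 1.8e-05). Its libraries did not overlap. KIF26A had 11.9, 13.4, 17.9, 11.4 and 12.5 CPM in testis and 5.04, 7.39, 7.66, 6.17 and 7.10 CPM in epididymis (log2 1.03 ± 0.22, edgeR adjusted p = 0.00110), without overlap but not beyond 2-fold. Its call was lost when testis replicate 4 stood alone (log2 0.87, edgeR adjusted p = 0.143). KIF2A, a depolymerase known from interphase cells and neurons (chromosome 16, 41016680 to 41101122), was grouped apart from its paralogs KIF2B and KIF2C. This placement was a choice, and the role counts and shares depend on it. KIF2A had 51.6, 45.3, 50.4, 86.6 and 57.1 CPM in testis and 11, 8.92, 17.3, 21.2 and 15.8 CPM in epididymis. The tissues were apart, with a log2 fold change of 2.0 ± 0.25 (edgeR adjusted p = 2.0e-05).

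The order of the genes by RPKM differed between the tissues. In testis KIF17 led, followed by KIF2C and by KIF2B with 45.6 ± 9.31 RPKM and KIF1C with 39.7 ± 3.44 RPKM (SD, n = 5). The first 2 steps of this order had no overlap of libraries, whereas KIF2B and KIF1C overlapped. In epididymis KIF1C led with 53.9 ± 10.9 RPKM, above KIF12 in every library, followed by KIF5B with 16.1 ± 8.22 RPKM, KIF7, and KIFC2 with 7.75 ± 6.40 RPKM. From KIF12 downwards, neighbours in the epididymis order overlapped, up to KIFC1 and KIF6 at its end. KIF1C alone took 4.67 ± 0.563% of the kinesin RPKM of the testis and 33.4 ± 5.80% of that of the epididymis. By role, cilium and flagellum kinesins made up 55.7 ± 3.36% of kinesin RPKM in testis and 17.5 ± 3.94% in epididymis. Spindle kinesins made up 25.9 ± 2.76% and 8.46 ± 3.13%, and transport kinesins 17.1 ± 1.05% and 59.2 ± 8.38%. None of these shares overlapped between the tissues. The difference of the cilium and flagellum group rested on KIF17: without that gene the group made up 16.7 ± 1.34% of the remaining kinesin RPKM in testis and 16.5 ± 2.71% in epididymis, with overlap. Spindle kinesins then made up 48.7 ± 1.86% and 8.57 ± 3.17%, and transport kinesins 32.3 ± 2.55% and 59.9 ± 7.93%, both without overlap.

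Within families of close paralogs the balance changed as well. Of the RPKM of the KIF1 genes, KIF1C made up 52.7 ± 2.92% in testis and 91.6 ± 2.74% in epididymis. KIF5C held 40.8 ± 2.24% of the KIF5 genes in testis and 6.48 ± 2.33% in epididymis, the rest being mostly KIF5B. These shares were close to each other among the libraries of a tissue, testis replicate 4 included, in which both KIF5B and KIF5C were high. KIF2B held 33.4 ± 3.78% of the KIF2 genes in testis and 4.65 ± 1.35% in epididymis, whereas KIF2A took 5.28 ± 0.987% and 52.3 ± 17.5%. KIF3B made up 82.4 ± 3.83% of the KIF3 genes in testis and 46.0 ± 10.2% in epididymis, KIF21B 89.7 ± 6.80% and 44.5 ± 13.3% of the KIF21 genes, and KIF26A 82.0 ± 2.30% and 39.3 ± 3.12% of the KIF26 genes. The tissues did not overlap in any of these shares, whereas those of KIF2C, KIF3A, KIF5A and the KIF18 and KIF20 pairs overlapped.

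**Figure D3:**
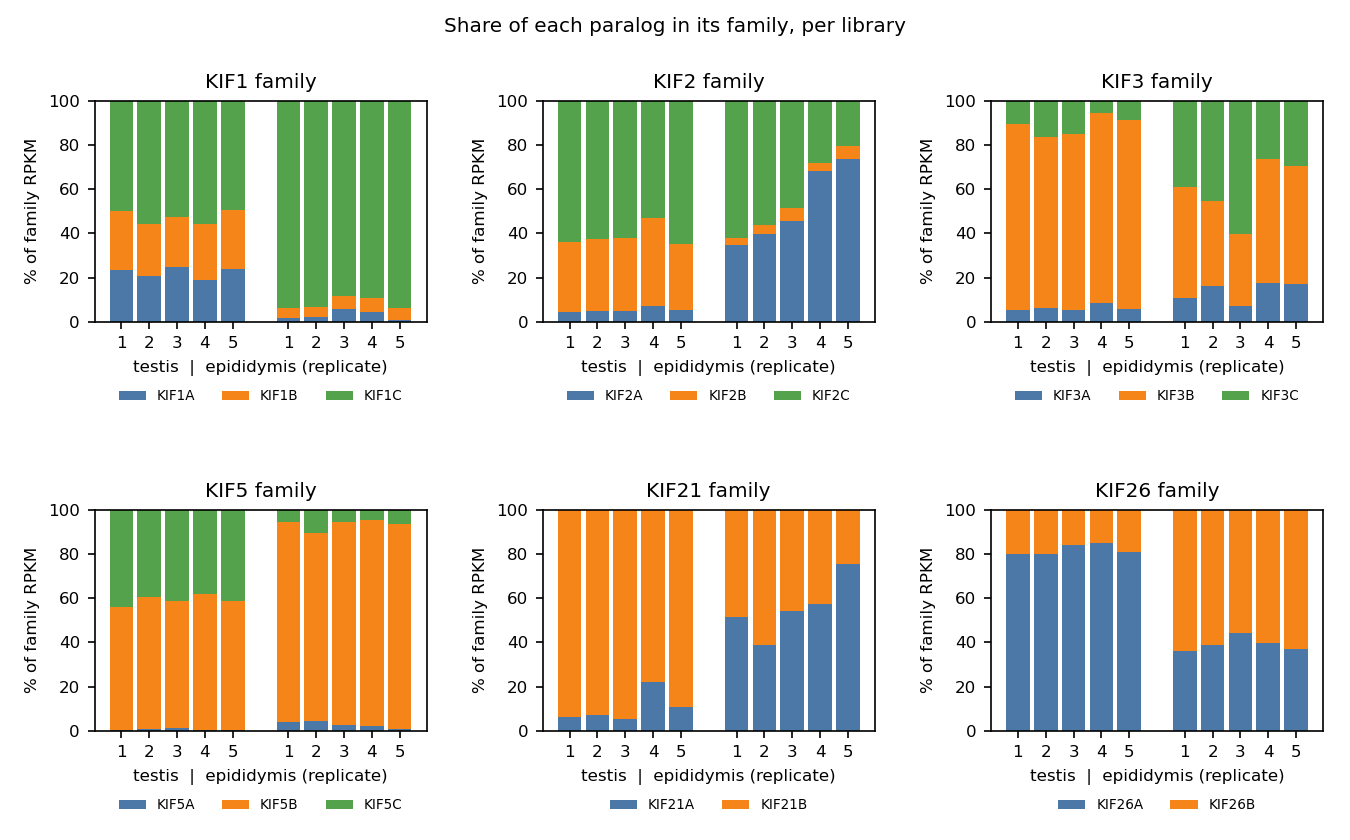
Share of each paralog in the summed RPKM of its family, in percent, for testis replicates 1 to 5 (left) and epididymis replicates 1 to 5 (right). KIF1C fills 49.7 to 55.7% of the testis bars of its family and 88.2 to 93.8% of the epididymis bars, and KIF5B 55.5 to 61.3% of the testis bars and 85.1 to 93.1% of the epididymis bars.

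The genes that work with these motors gave a background for each role. Their lists, too, were chosen with earlier results of these data known. Among 22 spindle partners, 19 were called higher in testis and 1 was higher in epididymis, with a median log2 fold change of 2.39. That is 86.4% and 4.55%, against 36.6% and 37.8% of all tested genes. BUB1, a spindle checkpoint kinase, had 135 ± 23.4 CPM in testis and 18.9 ± 10.9 CPM in epididymis (log2 2.83 ± 0.45, edgeR adjusted p = 0.000117). CKAP5, a microtubule polymerase, had 141 ± 27.8 CPM in testis and 58.8 ± 10.1 CPM in epididymis (log2 1.28 ± 0.17, edgeR adjusted p = 2.9e-05). The exception was NUMA1, a spindle pole protein that is also part of the interphase nucleus, with 263 ± 41.2 CPM in testis and 411 ± 81.3 CPM in epididymis (log2 -0.62 ± 0.19, edgeR adjusted p = 0.0110). Of 29 genes of intraflagellar transport and the BBSome, a coat of ciliary cargo, 17 were higher in testis, 1 was higher in epididymis and 11 were not called, with a median of 0.81. The shares of this list were 58.6% and 3.45%. In either direction 62.1% of it was called, fewer than the 74.4% of all tested genes. IFT172, a train subunit, had 472 ± 73.6 CPM in testis and 102 ± 9.22 CPM in epididymis (log2 2.23 ± 0.18, edgeR adjusted p = 5.4e-07), and IFT140 had 204 ± 13.5 and 57.6 ± 12.1 CPM (log2 1.84 ± 0.19, edgeR adjusted p = 3.4e-06). TRAF3IP1, another train subunit, had 107 ± 49.1 CPM in testis and 52.0 ± 8.27 CPM in epididymis (log2 1.05 ± 0.26, edgeR adjusted p = 0.00278). The exception was IFT122, also a train subunit, with 133 ± 9.61 CPM in testis and 173 ± 18.3 CPM in epididymis (log2 -0.36 ± 0.15, edgeR adjusted p = 0.0393). That call was lost with DESeq2 and under several other settings.

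Among 19 kinesin light chains and cargo adaptors, 5 were called higher in testis, against 10 in epididymis. That is 26.3% and 52.6%, against 36.6% and 37.8% of all tested genes, and the median log2 fold change was -0.64, against -0.07 for all genes. The list as a whole was not tested. MAPK8IP3, an adaptor of conventional kinesin, had 54.3 ± 4.10 CPM in testis and 160.4 ± 26.6 CPM in epididymis (log2 -1.55 ± 0.17, edgeR adjusted p = 6.5e-06). The light chain KLC1 had 66.4 ± 12.7 and 107 ± 28.2 CPM, with overlap of libraries (log2 -0.69 ± 0.22, edgeR adjusted p = 0.0126). PLEKHM2, which couples lysosomes to kinesin, was higher in testis, with 369 ± 62 CPM in testis and 85.7 ± 5.94 CPM in epididymis (log2 2.13 ± 0.18, edgeR adjusted p = 9.9e-07). So was the adaptor MAPK8IP1 (log2 1.01 ± 0.15, edgeR adjusted p = 8.9e-05). PLEKHM1 was higher in testis too, with overlap of libraries (log2 0.90 ± 0.21, edgeR adjusted p = 0.00215). With testis replicate 4 alone, 1 of these genes was called higher in epididymis, where 11.4% of all genes were.

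Cytoplasmic dynein and dynactin, the opposing motor and its cofactor, had 10 of 23 genes higher in testis and 9 higher in epididymis, with a median log2 fold change of -0.03. These shares, 43.5% and 39.1%, are close to the 36.6% and 37.8% of all tested genes. The heavy chain DYNC1H1 had 1381 ± 378 CPM in testis and 815 ± 112 CPM in epididymis (log2 0.79 ± 0.24, edgeR adjusted p = 0.0102), and PAFAH1B1, a dynein regulator, 209 ± 98.1 and 98.4 ± 20.2 CPM (log2 1.10 ± 0.26, edgeR adjusted p = 0.00249). The dynactin genes DCTN1 and ACTR1A were higher in testis as well (log2 0.70 ± 0.21 and 0.45 ± 0.17, edgeR adjusted p = 0.0105 and 0.0336). The libraries of DYNC1H1, DCTN1 and ACTR1A overlapped between the tissues. Testis replicate 4 had 738, 249 and 163 CPM of them, against up to 940.4, 317 and 194 CPM in epididymis. DYNLL2, a light chain, had 94.3 ± 22.6 CPM in testis and 202 ± 39.5 CPM in epididymis (log2 -1.09 ± 0.21, edgeR adjusted p = 0.000464), and DYNLRB1 and ACTR1B were likewise higher in epididymis (log2 -1.24 ± 0.21 and -0.87 ± 0.16, edgeR adjusted p = 0.000218 and 0.000372). With testis replicate 4 alone, 2 of the 23 genes were called higher in testis and 0 in epididymis, in a fit that called 23.4% and 11.4% of all genes.

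Kinesins also varied within the testis, where replicate 4 stood apart. It was the highest of the 5 testis libraries in 16 of 36 tested kinesins and the lowest in 15, or 44.4% and 41.7%. These shares are close to the 40.6% and 35.4% of all tested genes, so this library did not stand apart in kinesins in particular. It was highest by the largest factor in KIF21A, at 2.66 times the mean of the other 4, KIF15 at 2.42, KIF3A at 2.33, KIF5B at 2.24 and KIF27 at 2.15. It was lowest by the largest factor in KIF22 at 0.447 times, KIF18B at 0.617, KIF26B at 0.641, KIF24 at 0.642 and KIF3C at 0.689. Against the epididymis, with replicate 4 alone, the log2 fold change was 2.65 for KIF2A, 2.20 for KIF3B, 3.89 for KIF5C, 5.24 for KIF15, 3.55 for KIF23 and 5.76 for KIF27, each still called and over 1.5 times the fold of all 5 libraries. It was 0.65 for KIF5B and 1.88 for KIF21A, neither of them called (edgeR adjusted p = 0.478 and 0.0535). The 24 kinesins called higher in testis had no overlap of libraries, so replicate 4 was above every epididymis library in each. It was itself 1 of the 5 libraries behind those calls, so its position adds no separate support to them. The library also differs from the others in its structural RNAs, its meiotic markers and the age in its header, and their parts in these values were not tested. Over the tested kinesins the median coefficient of variation was 20.3% in testis and 43.7% in epididymis, against 22.9% and 36.7% over all tested genes.

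**Figure D4:**
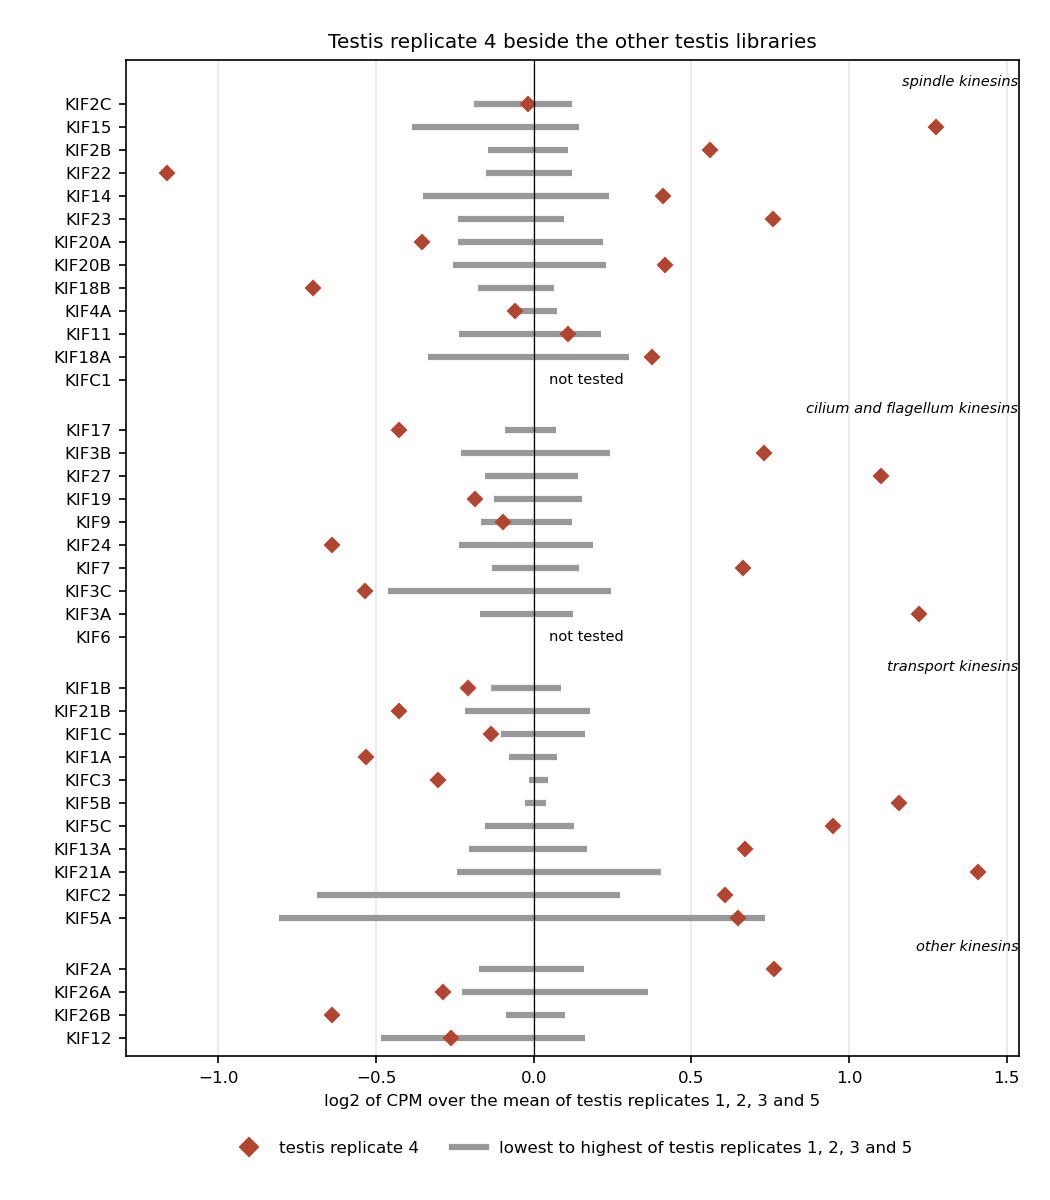
Log2 of the CPM of testis replicate 4 (diamonds) over the mean of testis replicates 1, 2, 3 and 5, for each tested kinesin gene; grey bars run from the lowest to the highest of those 4 libraries. Replicate 4 lies outside the bar in 31 of 36 genes, far to the right for KIF21A, KIF15, KIF3A, KIF5B and KIF27 and far to the left for KIF22. Of all tested genes, 40.6% had replicate 4 above the other 4 testis libraries and 35.4% had it below them.

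The kinesin genes are scattered over the genome. Of the 38, 36 could be placed by symbol in the RefSeq annotation of Sscrofa11.1, on 15 chromosomes, with 6 on chromosome 10. The spans of 13 of them overlap another annotated gene, among them KIF3A with RAD50, KIF5A with DCTN2, KIF20A with CDC23, KIF2A with DIMT1 and KIF24 with UBAP1 and NUDT2. The strand setting of the counting is not given in the sources used here, so reads from overlapping genes may have been assigned to either or to none of them.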

How the data were processed

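Testis and epididymis of 5 boars were profiled by short-read RNA sequencing, with 10 libraries analysed. The series also holds 2 long-read samples of pooled RNA, not analysed here. RNA was enriched for poly(A), and its cDNA was amplified by PCR, per the labels' protocols. Testis replicates 1, 2, 3 and 5 nonetheless held 15043 to 16185 CPM of structural RNAs without poly(A) tails, and the reason was not tested. The tools were cutadapt 3.0, STAR and, from Subread, featureCounts, with the build Sscrofa11.1, per the submitters' processing notes. The annotation release is not given in the sources used here, nor is the strand setting. The authors deposited counts of reads, whole numbers with no normalization, beside gene lengths in bases, per the file headers.

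From these counts, CPM was computed on the total of all gene rows and RPKM as CPM per 1000 bases of the deposited length. Differences were tested with edgeR 4.0.16 in R 4.3.3, by the quasi-likelihood test with TMM normalization and robust fitting. Genes with low counts were removed by filterByExpr, and p-values were adjusted by the Benjamini-Hochberg method over 17225 genes, with a threshold of 0.05. The 2-fold test was glmTreat of edgeR in the same fit. Standard errors were derived from the log2 fold change and the F statistic. Where a library has 0 reads of a gene, up to 3 are allowed for (0.0993 to 0.167 CPM). This covers counting error only, since the reads carry no molecular identifiers. The test was also run on simulated counts. The outcome is not given here, and no conclusion on the calls is drawn from it. No 2 libraries of a tissue held identical counts.

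Animal numbers in the file headers pair the tissues within each boar. The correlation of same-numbered libraries' deviations from their tissue means was 0.00656 to 0.0992, and in 2 of 5 boars the own number correlated best. The reported fit has no block for the boar, and a fit with it is an alternative, as are DESeq2 1.42.0, its size factors, no composition factors, no filter, leaving out each library, testis replicate 4 alone, leaving out epididymis replicates 3 and 4, and leaving out mitochondrial, structural RNA and histone rows.

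The members, role groups and gene lists were chosen with earlier results of these data known. Each kinesin is named. Values of every library are given, within each role, for up to 3 called genes with the largest change in each direction, for the highest RPKM in each tissue, and for genes not called with at least 5 CPM. Of each partner list, up to 4 called genes with the highest CPM and up to 3 against its direction are named, and CIT beside KIF14. Gene coordinates are those of the RefSeq gene table of Sscrofa11.1, counted from 1. Protein and promoter sequences were not analysed here.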

Additional observations from a re-analysis of the deposited data

Results flagged for a closer look

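By Dixon's test at the 95% level, 16 of 74 groups of 5 libraries held a library outside the other 4 of its tissue. The nominal rate is about 1 in 20, but the groups share their libraries and are not independent. Of the 16, 10 were testis replicate 4, 4 were epididymis replicate 3, and epididymis replicates 4 and 5 had 1 each. The same count over all genes is not given here. Testis replicate 4 was the highest testis library in 40.6% of all tested genes and the lowest in 35.4%, so its flags are not particular to kinesins.

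In testis replicate 4, the KIF5B value of 137 CPM compares with 60.2 to 63.0 CPM in the other testis libraries, that of KIF5C, 104 CPM, with 48.4 to 58.9 CPM, and that of KIF2A, 86.6 CPM, with 45.3 to 57.1 CPM. KIF3A had 21.6 CPM there against 8.24 to 10.1 CPM, and KIF21A 39.3 CPM against 12.5 to 19.6 CPM. KIF15 had 263 CPM against 83.1 to 120.0 CPM, KIF23 60.5 CPM against 30.3 to 38.2 CPM, KIF27 159 CPM against 66.6 to 81.7 CPM and KIF7 34.7 CPM against 20.0 to 24.2 CPM. KIFC3 was the one low value among them, with 65.5 CPM against 80.0 to 83.4 CPM.

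In epididymis replicate 3, KIF17 had 25.2 CPM against 1.97 to 5.34 CPM in the other epididymis libraries, and KIF19 3.42 CPM against 0.102 to 0.389 CPM. KIF2B had 0.821 CPM there against 0.329 to 0.441 CPM, and KIF3C 122 CPM against 32.5 to 38.6 CPM. KIF15 had 20.6 CPM in epididymis replicate 4 against 2.60 to 6.21 CPM. KIF12 had 14.5 CPM in epididymis replicate 5 against 47.8 to 59.8 CPM.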

How the results depend on the processing

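Of 648 values of the 36 tested kinesins under 18 alternatives, 626 kept their direction and their side of the threshold, and 23 kinesins did so under every alternative. Leaving out 1 library gave 24 kinesins higher in testis each time and 6 to 7 higher in epididymis. The replicate block gave 25 and 6, with 6307 and 6055 of all genes, and changed the call of KIF21A, as given in the report, and of no other kinesin. DESeq2's size factors moved the median log2 fold change of all genes by 0.12, from -0.07 to 0.05.

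With testis replicate 4 alone for the testis, assumed to vary like the epididymis libraries, 2145 of all genes, against 6506, were called higher in epididymis, or 11.4% of those tested in that fit. So were 2 kinesins, 0 of the cilium, 0 of the transport kinesins, 0 spindle partners and 1 adaptor, and of dynein and dynactin 2 were higher in testis and 0 in epididymis. This fit has 4 libraries fewer. KIF3A turned to 0.64 and KIF5B to 0.65. The 7 kinesins that lost their call in it were KIF3C, KIF5A, KIF7, KIF18B, KIF26A, KIFC2 and KIFC3. The count of intraflagellar transport genes higher in epididymis was 0, against 1, with DESeq2, its size factors, no filter, the replicate block, and without mitochondrial, structural RNA and histone rows. It was 0 to 3 when 1 library was left out, reaching 3 once testis replicate 4 was dropped and 2 once epididymis replicate 3 was. That of spindle partners was 1 to 2, with 2 once testis replicate 4 was dropped. Leaving out 1 library gave log2 values of -0.01 to 0.57 for KIF4A, -0.58 to 0.01 for KIF5B and -0.11 to 0.14 for KIF13A, none of them called. The cause of these changes was not tested. Reads were few for KIFC1, with 69 in testis and 24 in epididymis, and for KIF6, with 1 and 0. They were few in epididymis for KIF2B, with 47, and KIF19, with 92. Whether the depth of the libraries limits these values was not tested.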
